A study of Mus musculus with 12 samples.

Results

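The response of cultured mouse oligodendrocyte precursor cells (OPCs, which divide and can mature into myelin-forming oligodendrocytes) to the cytokine IFN-γ was described across gene families. It rests on 8 of the 12 libraries of the study, 4 from untreated cells (Ctr-OPCs) and 4 from IFN-γ-treated OPCs, which were joined into 4 pairs by their replicate number. Of 55536 annotated genes, the 17476 with 10 or more reads in at least 4 of these 8 libraries were tested. The 4 libraries of dexamethasone-treated cells are not described here. Per the labels, cells came from the brains of P4 to P6 pups, several brains being pooled for a culture, and were taken either by sorting on Sox10-driven GFP or with magnetic beads against CD140a, the PDGF receptor α. The cell type field reads Sox10GFP+ OPCs for every sample, and which route was used for which sample is not stated. In the Sox10:Cre-RCE:LoxP (EGFP) line of the study's methods, made from parents on C57BL/6j and mixed C57BL/6xCD1 backgrounds, Cre is driven by Sox10 and marks the whole oligodendrocyte lineage, so that GFP alone does not separate precursors from more mature cells. The labels also carry the mouse model entry EAE (experimental autoimmune encephalomyelitis), although the cells were grown from pups. Both groups were kept with PDGFaa and bFGF, growth factors that keep OPCs dividing, and the treated cultures received IFN-γ at 100 ng/ml for 48 h. Replicates came from different litters, and replicates 3 and 4 share a prefix in their titles whose meaning is not given.

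IFN-γ is made mainly by T cells and natural killer cells. It binds a receptor that signals through the kinases JAK1 and JAK2 to GAS elements in target promoters, and newly made IRF1 and other factors then act through ISRE elements. The genes switched on this way serve antigen presentation, defence against viruses and intracellular parasites, and the recruitment of lymphocytes. In the oligodendrocyte lineage the cytokine is known for inducing major histocompatibility complex (MHC) genes and for hindering the differentiation of precursors.

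Read depth, in units of 1e6 reads, was 30.9 to 52.1 in Ctr-OPCs and 26.5 to 35.3 in IFN-γ-treated OPCs, and in each pair the Ctr library was the deeper one. The first principal component of the 8 libraries (57.7% of the variance) separated Ctr-OPCs (-73.2 to -40.2) from IFN-γ-treated OPCs (50.8 to 71.1). The second (24%) ordered the pairs and set pair 1 (-67.1 and -49.8) and pair 2 (-19 and -0.1) apart from pairs 3 and 4 (21.7 to 40.5). The OPC markers Pdgfra and Cspg4, and Sox10, which marks the whole oligodendrocyte lineage, held at least 3999 normalized counts in every library. Defining markers of immune cells were scarce in both groups. Of 15 markers of microglia and macrophages 3 passed the filter and 0 were called. The 15 summed to 347.8 to 509.8 normalized counts per Ctr library and 436.4 to 556.6 per IFN-γ library. Aif1 and Cx3cr1 held 0 to 3 reads each in every library, Ptprc 0 to 8 and Csf1r 4 to 18. Among T cell markers 0 of 8 passed, with Ifng at 0 reads in all 8 libraries. The choroid plexus gene Ttr held 443 and 219 reads in the Ctr and IFN-γ libraries of pair 2 and at most 7 in the other libraries.

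IFN-γ moved a large share of the transcriptome, and most of the affected genes changed moderately or slightly. In a fit that compared cultures within pairs (edgeR's quasi-likelihood test, Benjamini-Hochberg adjusted p under 0.05), 2395 genes (13.7% of those tested) were higher and 2348 (13.4%) were lower in IFN-γ-treated OPCs. Of all genes tested 27.1% thus changed in either direction. Where changes of 1.5 or more on the log2 scale were taken as strong, 571 genes (3.27%) were strongly higher and 175 (1%) strongly lower. Between 0.5 and 1.5, 949 genes (5.43%) were moderately higher and 1061 (6.07%) moderately lower, and the other 875 and 1112 called genes moved by less than 0.5. The median log2 fold change of all genes tested was -0.02. Strongly higher genes had few reads without the cytokine. Their median level in Ctr-OPCs was 15.9 normalized counts (read counts scaled to a common library size), and 69 of them held at most 3 counts in every Ctr library. These 69 could pass the filter only through the IFN-γ libraries, so their direction was set by it. Together all strongly higher genes took 1090 ± 772 TPM (transcript level scaled for depth and length) in Ctr-OPCs and 20000 ± 3300 TPM in IFN-γ-treated OPCs (SD, n = 4 each), while the strongly lower genes took 1090 ± 500 and 348 ± 134 TPM. TPM sums also differed between the groups for genes with little change. Cytosolic ribosomal protein genes, with a median log2 fold change of 0.02, took 39900 TPM in Ctr-OPCs and 46300 TPM in IFN-γ-treated OPCs.

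Pairing decided most of the lower calls. Without the replicate block 1366 genes were called, 5.74% of those tested being higher and 363 (2.08%) lower, and all 1366 were also called with the block. The block added 1392 higher genes, with a median log2 fold change of 0.45, and 1985 lower genes, with a median of -0.48. For 1038 of the added higher genes and 1589 of the added lower genes the values of the groups overlapped, and their calls rest on the differences within pairs. Over all genes tested, the groups did not overlap for 1541 genes that were higher (8.82%) and 1028 that were lower (5.88%). DESeq2 with the same block called 4716 genes, of which 4479 were among the 4743 called here. The plot of calls by size shows that the strongly higher class hardly depended on the block (571 genes with it against 535, or 3.06%, without it), whereas without it the moderately lower class shrank from 1061 genes to 221 (1.26%), the moderately higher class from 949 to 371 (2.12%) and the strongly lower class from 175 to 67 (0.383%). DESeq2 without the block called 133 strongly lower genes (0.761%).

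**Figure D1:**
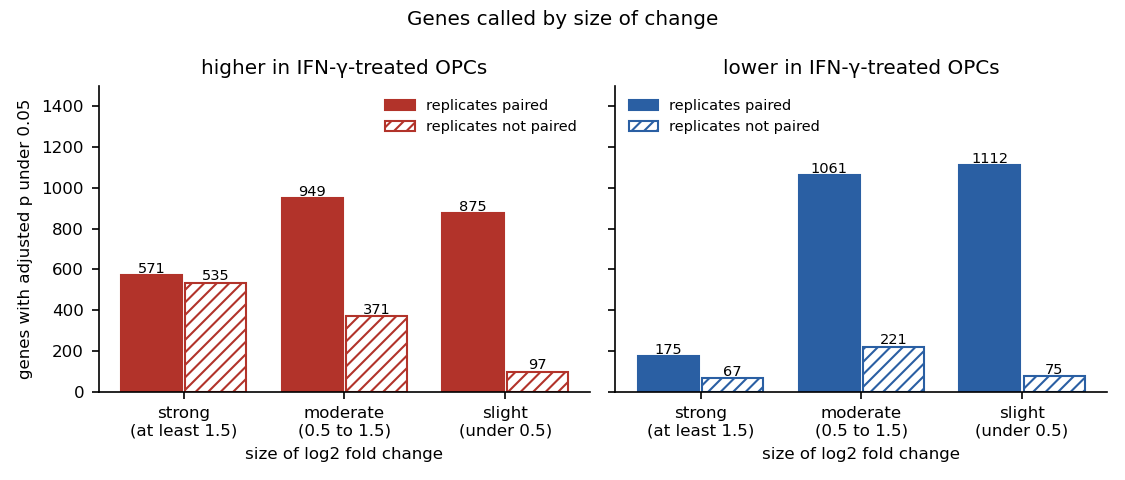
Number of genes called (adjusted p under 0.05, edgeR) by the size of their log2 fold change, left for genes higher and right for genes lower in IFN-γ-treated OPCs, with filled bars for the fit within pairs and hatched bars for the fit without the replicate block. Strongly higher genes numbered 571 and 535, while moderately lower genes numbered 1061 and 221.

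To order the response by function, 36 gene lists were counted (plot of list members called). Beside every count the background is the 13.7% of all tested genes called higher and 13.4% called lower. The lists overlap in a few genes, and their counts are a description and not a test. Listed genes with too few reads were not tested, so each share is one of tested members only. A member with at most 3 counts in every Ctr library (the floor) could pass only through the IFN-γ libraries. Its direction was thus set by the filter.

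**Figure D2:**
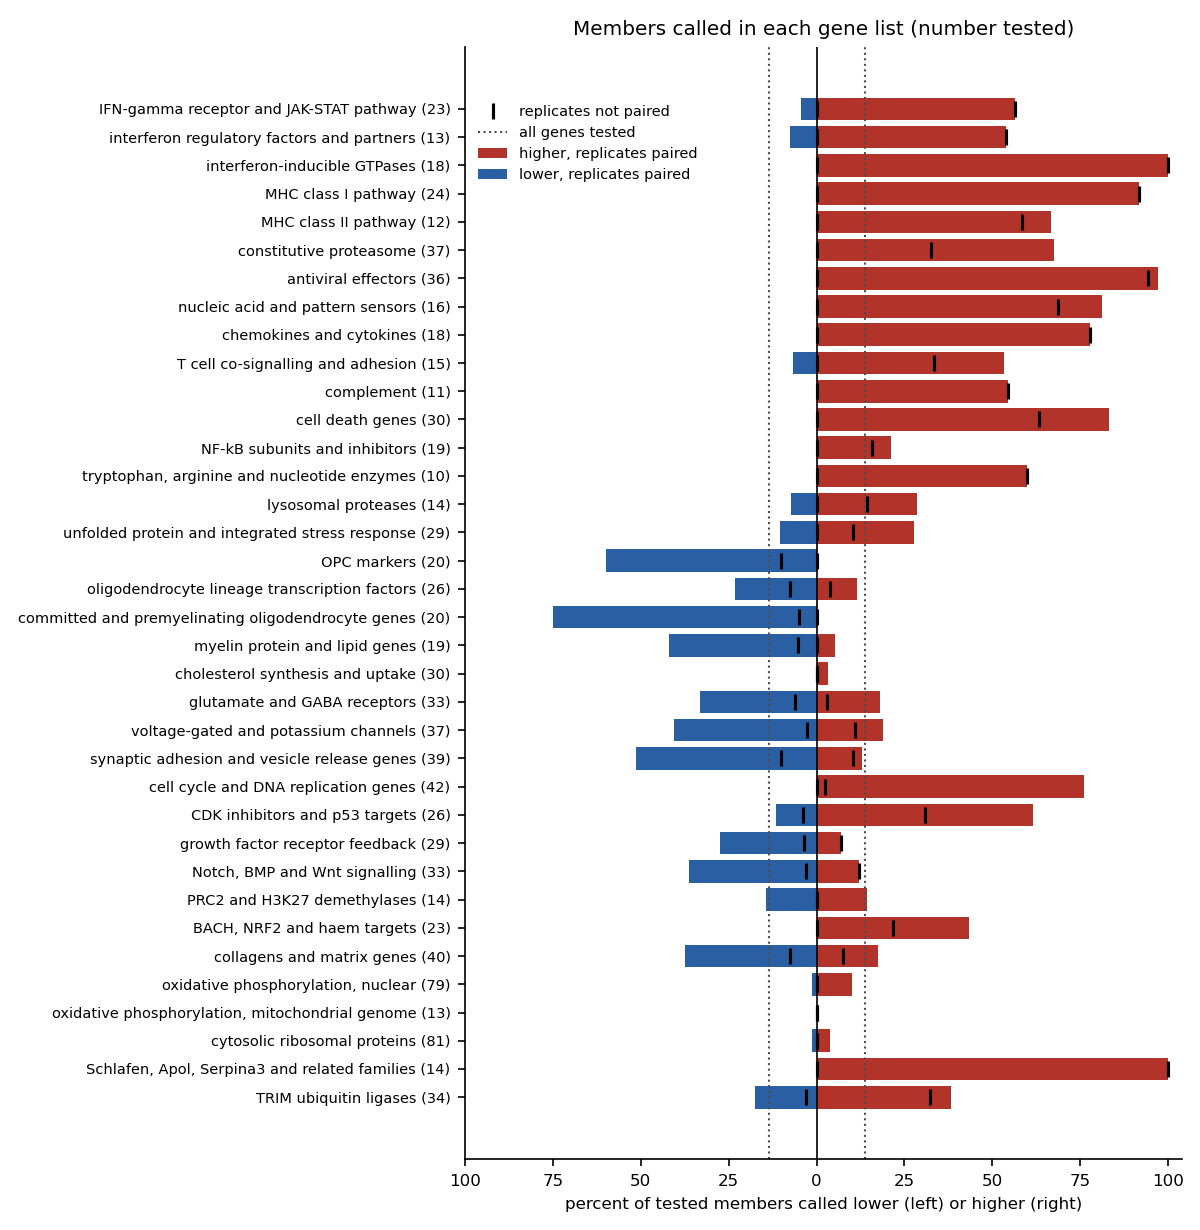
Percent of the tested members of each of 36 gene lists called lower (blue, left) or higher (red, right) in IFN-γ-treated OPCs, with black ticks for the fit without the replicate block and dotted lines at the 13.4% and 13.7% of all 17476 genes. Interferon-inducible GTPases and the Schlafen, Apol and Serpina3 families reached 100% higher, and committed and premyelinating oligodendrocyte genes 75% lower. Of the 14 tested Schlafen, Apol and Serpina3 members, 7 could pass the filter only through the IFN-γ libraries.

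The genes of the receptor itself did not rise, while those of the factors and feedback inhibitors downstream did. The receptor subunits that bind the cytokine and carry JAK2 are encoded by Ifngr1 and Ifngr2. Ifngr1 held 892, 884, 995 and 880 normalized counts in Ctr-OPC replicates 1 to 4 and 722, 774, 691 and 790 in IFN-γ-treated OPCs, so the groups did not overlap, and it fell by 0.29 on the log2 scale (SE 0.08 over the 4 paired differences, adjusted p = 0.032, 0.0865 without the replicate block). Its call was also lost without pair 1, 2 or 3 (adjusted p = 0.0861, 0.0883 and 0.112). Ifngr2 did not pass (log2 fold change -0.09 ± 0.06 SE, adjusted p = 0.464). Of 23 tested genes of the receptor and JAK-STAT list 13 were higher and 1 lower, with a median of 0.62. Stat2 rose by 3.27 ± 0.05 (log2, SE), Stat3 by 1.76 ± 0.04 and the kinase gene Jak2 by 1.14 ± 0.07, from 3731 to 8241 normalized counts on average. Socs1, whose product blocks JAK kinases, held 20 to 23.8 normalized counts in Ctr-OPCs and 1364 to 1480 after IFN-γ (6.06 ± 0.07), while Ptpn2, a phosphatase that also dampens JAK-STAT signals, did not pass (0.12 ± 0.08, adjusted p = 0.328).

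Interferon regulatory factors (IRFs) carry the response to its later targets. Of 13 tested members and partners 7 were higher and 1 was lower, with a median of 1.16. Irf1 held 382, 398, 453 and 371 normalized counts in Ctr-OPCs and 24635, 26513, 26541 and 25327 in IFN-γ-treated OPCs, a rise of 6.01 ± 0.05. Irf8, known as a factor of myeloid cells, rose from 69.4 ± 8.29 to 7620 ± 667 normalized counts (SD, n = 4), and Irf9, a partner of STAT2, from 235 ± 7.29 to 4021 ± 606. Batf2, a partner of IRF1, was barely read in Ctr-OPCs (0.99 to 3.81 normalized counts) and held 1401 to 1826 after IFN-γ. Irf2, which competes with IRF1 for its sites, was moderately higher (1.16 ± 0.11). Its corepressor gene Irf2bp1 was the lower member (-0.35 ± 0.08, adjusted p = 0.0128, 0.153 without the block, 0.0841 without pair 2 and 0.0561 without pair 4).

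Stretches of the promoters of induced genes are printed because the factors above bind short DNA elements. The windows reach from 250 bases before to 50 bases after each start in RefSeq (GRCm38.p6), and 2 patterns were searched on both strands, the ISRE core GAAANNGAA and the GAS element TTCNNNGAA, the latter reading alike on both strands. The genes were picked after the matches had been seen. Each run is 60 bases, 5′ to 3′ along the gene, with the matched letters in capitals.
Irf1, chr11:53769898-53769957, plus strand, GAS beginning 90 bases before the start: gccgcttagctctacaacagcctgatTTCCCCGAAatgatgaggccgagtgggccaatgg
Psmb8, chr17:34198072-34198131, plus strand, GAS beginning 97 bases before the start: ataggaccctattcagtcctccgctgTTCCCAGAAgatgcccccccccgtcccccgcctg
Igtp, chr11:58199496-58199555, plus strand, GAS and ISRE core beginning 45 and 34 bases before the start: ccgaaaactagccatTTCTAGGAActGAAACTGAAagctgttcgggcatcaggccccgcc
Socs1, chr16:10785580-10785639, minus strand, overlapping ISRE cores beginning 83 and 77 bases before the start: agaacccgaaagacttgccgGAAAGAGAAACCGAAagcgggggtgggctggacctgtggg
B2m, chr2:122147522-122147581, plus strand, ISRE core beginning 139 bases before the start: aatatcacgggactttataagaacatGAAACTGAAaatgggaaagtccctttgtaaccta
Gbp2, chr3:142620579-142620638, plus strand, ISRE core on the other strand 58 bases before the start: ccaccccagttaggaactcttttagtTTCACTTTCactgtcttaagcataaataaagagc

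Among all 32851 windows of the table, 8.56% held an ISRE core and 8.3% a GAS match, and among the 14435 windows of tested genes 7% and 6.85%. The 494 windows of 373 strongly higher genes held an ISRE core in 22.1% and a GAS match in 13.8%. For moderately higher genes the shares were 7.61% and 9.62%, for genes not called 6.52% and 6.75%, for moderately lower genes 5.03% and 5.03%, and for the 145 windows of strongly lower genes 9.66% and 4.14%. A match is a run of letters and not a bound site, and the windows of Tap1, Sox8, Tnr, Psmb5 and Psma5 held neither pattern.

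The interferon-inducible GTPases, which attack the vacuoles of parasites and bacteria, had the highest median of the 36 lists. They were higher in 18 of 18 tested members, with a median of 9.86. Their summed level went from 947 to 1322 normalized counts per Ctr library to 678300 to 798100 per IFN-γ library. Gbp2 held 102, 101, 123 and 89.9 normalized counts in Ctr-OPCs and 129319, 120068, 112983 and 113525 after IFN-γ, a rise of 10.15 ± 0.11. Igtp rose by 9.89 ± 0.18 and Irgm1 by 7.99 ± 0.16, from 302 ± 29.4 to 77528 ± 12600 normalized counts (SD, n = 4). Several of these genes have near-identical neighbours, and how their shared reads were split among copies is uncertain.

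Antiviral effectors were higher in 35 of 36 tested members, with a median of 6.14 (5.96 with genes at the floor of 3 counts set to their lower bound). Isg15, a ubiquitin-like modifier, held 3.05 to 4.95 normalized counts in Ctr-OPCs and 945 to 1274 after IFN-γ. Bst2, which tethers virus particles, rose by 6.81 ± 0.30 and the RNA-activated kinase gene Eif2ak2 by 3.38 ± 0.32. Adar, which edits double-stranded RNA, was among the moderately higher genes with the smallest p-values. It held 1964, 2076, 2149 and 1952 normalized counts in Ctr-OPCs and 4436, 4544, 4720 and 4613 after IFN-γ (1.17 ± 0.03, adjusted p = 3.07e-06). Of 27 listed sensors of nucleic acids and microbes 16 were tested, and 13 of these were higher, with a median of 2.67. The RNA sensor gene Ddx58 rose by 3.56 ± 0.15 and the endosomal receptor gene Tlr3 by 3.68 ± 0.34. Mavs, the adaptor that relays the cytosolic RNA sensors, did not pass (-0.08 ± 0.05, adjusted p = 0.417). Tmem173, which encodes the DNA-sensing adaptor STING, held 272, 272, 112 and 162 normalized counts in Ctr-OPCs and 828, 435, 209 and 213 after IFN-γ. It was higher in each pair although the groups overlapped (0.92 ± 0.26, adjusted p = 0.00908, 0.278 without the block).

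The Schlafen, Apol and Serpina3 families are small gene clusters with many recent copies. Of 26 listed members 14 were tested, and all 14 were higher. For the 7 at the floor this direction was set by the filter, so the share of 100% is not a result about the families. The median was 7.51, or 5.74 with these 7 set to their bound. Slfn2 was at least 25.9-fold higher, with 0 to 0.762 normalized counts in Ctr-OPCs and 48.3 to 93 after IFN-γ. Serpina3n held 18.8, 33.1, 35.8 and 32.4 normalized counts in Ctr-OPCs and 133, 464, 534 and 494 after IFN-γ, with pair 1 the lowest in both groups. Of 34 tested TRIM ubiquitin ligases 13 (38.2%) were higher and 6 (17.6%, against 13.4% of all genes) lower, with a median of 0.08. Trim21, an intracellular antibody receptor, rose by 4.55 ± 0.13 and Trim25 by 2.14 ± 0.15. Trim67 fell by 0.91 on the log2 scale (SE 0.15, adjusted p = 0.00106) and Trim8 by 0.48 (SE 0.09, adjusted p = 0.0031). The Trim30a and Trim34a genes belong to a cluster of close paralogs, so their levels are uncertain.

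MHC class I presentation rose as a whole pathway, apart from the general chaperones of the endoplasmic reticulum. Of 24 tested members 22 were higher, 21 of them strongly, with a median of 5.29. B2m, the light chain of class I molecules, held 945, 839, 818 and 783 normalized counts in Ctr-OPCs and 34262, 39514, 47321 and 46656 after IFN-γ (5.62 ± 0.17). H2-D1 rose by 5.62 ± 0.06, the peptide transporter gene Tap1 by 6.01 ± 0.11 and the peptide-trimming protease gene Erap1 by 3.95 ± 0.02. Nlrc5, the transactivator of class I genes, rose from 23.9 ± 4.07 to 16442 ± 1340 normalized counts (SD, n = 4). The chaperone genes Calr and Canx did not pass, at 0.13 ± 0.04 (adjusted p = 0.18) and 0.11 ± 0.04 (adjusted p = 0.239).

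The proteasome showed large and small changes side by side. It degrades proteins into peptides, and in cells exposed to IFN-γ the catalytic subunits encoded by Psmb5, Psmb6 and Psmb7 are known to be replaced by those of the immunoproteasome. Psmb8 held 29.7, 54.5, 50.3 and 56.4 normalized counts in Ctr-OPCs and 19391, 19512, 21194 and 21503 after IFN-γ (8.74 ± 0.19). Psmb9, added after its values were seen, rose by 8.06 ± 0.17, and Psme1, which encodes a subunit of the activator cap PA28, by 3.36 ± 0.06. Of 37 tested genes of the constitutive proteasome 25 (67.6%) were higher and 0 lower, with a median of 0.23, and 4 of the 25 changed by 0.5 or more. Without the replicate block 12 of them were higher, and without pair 2 the count with the block was 14. Of the 3 catalytic genes of the constitutive form, Psmb5 and Psmb6 did not pass (0.02 ± 0.08 and 0.10 ± 0.06, adjusted p = 0.9 and 0.294), and Psmb7 was slightly higher at 0.18 ± 0.01 (adjusted p = 0.0332, 0.349 without the block, 0.123, 0.0863 and 0.097 without pair 2, 3 or 4). Psmb2 rose by 0.70 ± 0.06, the assembly chaperone gene Pomp by 0.61 ± 0.05 and Psma5 by 0.54 ± 0.03. Psma5 held 3624, 3305, 3010 and 3005 normalized counts in Ctr-OPCs and 5537, 4839, 4116 and 4344 after IFN-γ, so that the groups did not overlap. The 37 genes summed to 140600 to 163600 normalized counts per Ctr library and 167100 to 198700 per IFN-γ library. The median change of the list was 0.23, 0.26, 0.27 and 0.19 in pairs 1 to 4.

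**Figure D3:**
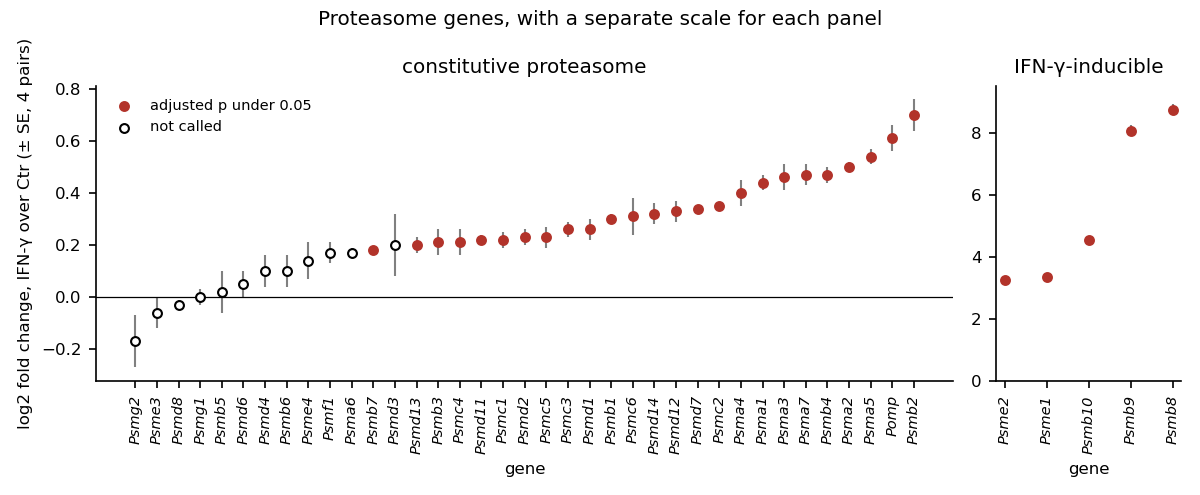
Log2 fold change of proteasome genes in IFN-γ-treated over Ctr-OPCs, with bars for the SE over the 4 paired differences, red for genes called and open circles for genes not called, and with a separate vertical scale for each panel. The constitutive genes lie between -0.17 and 0.7, and the IFN-γ-inducible genes include Psmb8 at 8.74 and Psme1 at 3.36.

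MHC class II genes, which present peptides to helper T cells, were higher in 8 of 12 tested members, with a median of 6.14. Their master regulator Ciita held 51.5, 44.1, 58.7 and 66 normalized counts in Ctr-OPCs and 8001, 8544, 7712 and 7443 after IFN-γ (7.19 ± 0.17). H2-Aa rose by 10.02 ± 0.21, H2-Ab1 by 8.04 ± 0.26 and the invariant chain gene Cd74 by 8.92 ± 0.69. Rfx5, a DNA-binding partner of CIITA, did not pass (-0.01 ± 0.08, adjusted p = 0.932). Lgmn, a lysosomal protease that trims the invariant chain, was slightly higher (0.38 ± 0.03, adjusted p = 0.00214, 0.162 without the block). Among lysosomal proteases and membrane proteins 4 of 14 tested genes were higher and 1 lower, with a median of 0.04. Lamp2 rose by 1.02 ± 0.08 and the cathepsin gene Ctsf fell by 0.79 on the log2 scale (SE 0.08, adjusted p = 0.000329, 0.145 without the block), while Ctsd stood at 0.02 ± 0.06 (adjusted p = 0.819).

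Signals to lymphocytes rose in several families. Of 33 listed chemokine and cytokine genes 18 were tested, and of these 14 were higher and 0 lower, with a median of 2.3. Of the tested genes 3, Cxcl9 among them, were at the floor in Ctr-OPCs. Cxcl9, which attracts activated T cells, was at least 117-fold higher, with 0 to 0.99 normalized counts in Ctr-OPCs and 269 to 369 after IFN-γ. Cxcl10, a ligand of the same receptor, differed among the treated libraries. It held 4.8 to 6.93 normalized counts in Ctr-OPCs and 12622, 6522, 2371 and 6748 after IFN-γ, so pair 1 ended higher than pair 3 (10.16 ± 0.45). Il18bp, a secreted decoy of interleukin 18, rose evenly by 3.79 ± 0.02, and Csf1, a growth factor of microglia, by 2.72 ± 0.12. Ccl2 rose by 1.91 ± 0.30 and Il15 by 2.39 ± 0.50, both from fewer than 50 normalized counts in every Ctr library.

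Of 15 tested T cell co-signalling and adhesion genes 8 were higher and 1 was lower, with a median of 0.68 (5 and 0 without the replicate block). Cd274, which encodes the inhibitory ligand PD-L1, held 4.95 to 10.8 normalized counts in Ctr-OPCs and 1551 to 2355 after IFN-γ. Icam1, an adhesion ligand of leukocytes, rose by 6.98 ± 0.25. Vcam1 held 1051, 894, 266 and 438 normalized counts in Ctr-OPCs and 2106, 1591, 957 and 2007 after IFN-γ. It was higher in each pair while the groups overlapped (1.44 ± 0.33, adjusted p = 0.00197, 0.119 without the block). Alcam, another adhesion molecule, was the lower member (-0.48 ± 0.07, adjusted p = 0.00133, 0.447 without the block). Of 22 listed complement genes 11 were tested, and 6 of these were higher, with a median of 2.59. Serping1, the inhibitor of the first complement complex, rose by 9.13 ± 0.22 and C4b by 7.82 ± 0.41, the latter sharing reads with a near-identical neighbour. C3, the central component, did not pass the filter, with 0 to 14 reads per library.

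Genes of cell death rose broadly and often moderately. Of 30 tested members 25 (83.3%) were higher and 0 lower, with a median of 1.14, and 10 of the 25 were moderate (19 higher without the replicate block). Casp1, the inflammasome caspase, rose by 6.16 ± 0.20, Mlkl, the executioner of necroptosis, by 5.70 ± 0.13, and the death receptor gene Fas by 3.72 ± 0.38. Casp8, the caspase of death receptors, was higher in each pair from low counts (1.33 ± 0.18, adjusted p = 0.0018, 0.132 without the block). Bcl2l11, which encodes the pro-apoptotic BIM, rose by 0.55 ± 0.03, from 393, 295, 248 and 245 to 548, 448, 371 and 355 normalized counts (adjusted p = 0.00254, 0.171 without the block).

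NF-κB is another inducer of inflammatory genes. Of 19 tested subunits, inhibitors and regulators 4 (21.1%, against 13.7% of all genes) were higher and 0 lower, with a median of 0.01. Nfkb1 stood at -0.01 ± 0.03, Relb at -0.07 ± 0.11 and the inhibitor gene Nfkbia at -0.19 ± 0.10 (adjusted p = 0.927, 0.762 and 0.197). The higher members included Map3k14, the kinase of the noncanonical branch (1.04 ± 0.03), and the inhibitor gene Tnfaip3 (1.33 ± 0.21). Bcl3 was at least 6.78-fold higher, with 15.3 to 21.9 normalized counts after IFN-γ.

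Metabolic and stress genes were more selective. Of 20 listed tryptophan, arginine and nucleotide enzymes 10 were tested, and of these 6 were higher and 0 lower, with a median of 1.18. Wars, the tryptophanyl-tRNA synthetase, held 3791, 3790, 3328 and 3888 normalized counts in Ctr-OPCs and 9477, 8078, 7455 and 7324 after IFN-γ (1.12 ± 0.08). Nampt, which makes a precursor of NAD, rose by 1.62 ± 0.08 and Lap3, an aminopeptidase, by 1.99 ± 0.05. Of 29 genes of the unfolded protein and integrated stress responses 8 were higher and 3 lower, with a median of 0.12 (3 and 0 without the replicate block). Atf3 rose by 3.56 ± 0.25 from low counts and Edem1, a factor of protein quality control, by 1.21 ± 0.10. The chaperone gene Hspa5 and the central factor gene Atf4 did not pass (0.12 ± 0.10 and 0.19 ± 0.09, adjusted p = 0.32 and 0.103). Leaving out pair 2 or pair 3 left 6 of the 11 calls in this list.

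Of 23 BACH, NRF2 and haem genes, which govern the defence against oxidants, 10 were higher and 0 lower, with a median of 0.20 (5 higher without the replicate block). Nfe2l2, which encodes the activator NRF2, held 1631, 1072, 693 and 868 normalized counts in Ctr-OPCs and 3038, 2081, 1509 and 1962 after IFN-γ. Each pair rose by a similar step although the groups overlapped (1.04 ± 0.07, adjusted p = 2.74e-05, 0.0802 without the block). Its target Txnrd1 rose by 0.75 ± 0.02 and the haem oxygenase gene Hmox1 by 0.70 ± 0.09, while the target Nqo1 did not pass (0.02 ± 0.26, adjusted p = 0.951). The repressor gene Bach1 did not pass (-0.07 ± 0.03, adjusted p = 0.406).

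Genes of cell division were moderately higher once pairs were compared, and this result depended on the pairs. Of 42 tested cell cycle and DNA replication genes 32 (76.2%) were higher and 0 lower, 23 of them moderately, with a median of 0.52, against 1 without the replicate block. Ccnd1, the cyclin that couples growth factors to division, held 28497, 25242, 14997 and 13421 normalized counts in Ctr-OPCs and 51201, 36944, 27588 and 23156 after IFN-γ. It rose in each pair (0.77 ± 0.07, adjusted p = 0.000208, 0.223 without the block). Its kinase partner gene Cdk6 rose by 0.98 ± 0.11 without overlap of the groups. The replication helicase gene Mcm5 held 9472, 7582, 2956 and 2873 normalized counts in Ctr-OPCs and 11494, 10276, 7007 and 5544 after IFN-γ (0.72 ± 0.22, adjusted p = 0.00926), and the mitotic topoisomerase gene Top2a rose by 0.86 ± 0.24. Mki67, a common marker of dividing cells, did not pass. It went from 37616 to 32426 normalized counts in pair 1 and from 15295 to 26251 in pair 4 (0.24 ± 0.21, adjusted p = 0.257).

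The size of the cell cycle change differed among pairs. The median change of the 42 genes was 0.10 in pair 1, 0.32 in pair 2, 0.82 in pair 3 and 0.83 in pair 4, and 31, 40, 42 and 41 of the genes were higher in these pairs. In the Ctr libraries the median level of the list relative to each gene's Ctr mean ran the other way, at 0.74, 0.38, -0.49 and -0.65. A change and its starting level share the Ctr library, so the order of one is not independent of the order of the other. After IFN-γ the 4 libraries lay closer together, at 0.86, 0.73, 0.30 and 0.17. Without pair 2, 3 or 4 the number of called members was 15, 13 or 12, and without pair 1 it was 37.

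A mixed list of cell cycle inhibitors and p53 targets was mostly higher. Of 26 tested CDK inhibitors and p53 targets 16 (61.5%) were higher, with a median of 0.37. The 3 lower ones (11.5%) lay below the share of 13.4% among all genes. Without the replicate block 8 were higher and 1 lower. Cdkn1a, which encodes the inhibitor p21, held 1289, 1197, 538 and 773 normalized counts in Ctr-OPCs and 3011, 2320, 1794 and 1590 after IFN-γ, without overlap (1.23 ± 0.18). The p53 targets Ccng1 and Eda2r rose by 0.88 ± 0.08 and 0.88 ± 0.11, and Mdm2 by 0.32 ± 0.04. Cdkn1c, which encodes p57, fell by 1.02 on the log2 scale (SE 0.24, adjusted p = 0.00463). Cdkn1b did not pass (0.19 ± 0.05, adjusted p = 0.0534). The median change of this list was 0.46, 0.40, 0.63 and 0.33 in pairs 1 to 4.

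**Figure D4:**
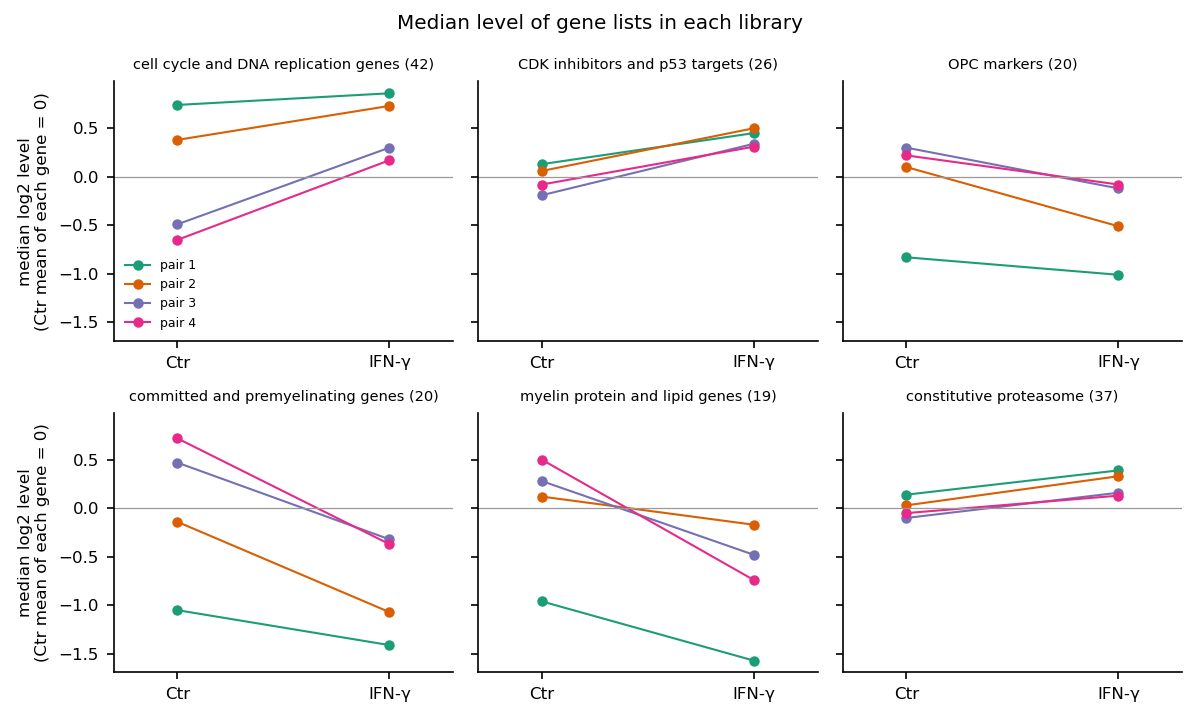
Median level of 6 gene lists in each library, as log2 normalized counts relative to the mean of the 4 Ctr libraries for each gene, with lines joining the Ctr and IFN-γ libraries of a pair and the number of genes tested in brackets. Cell cycle genes rose by a median of 0.10 in pair 1 and 0.83 in pair 4, and committed and premyelinating genes fell in every pair.

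OPC markers fell moderately. Of 20 tested markers 12 (60%) were lower and 0 higher, with a median of -0.53, against 2 lower without the replicate block. Pdgfra, the receptor for the mitogen in the medium, held 47110, 103247, 124541 and 93672 normalized counts in Ctr-OPCs and 20496, 64713, 84161 and 87675 after IFN-γ. It fell by 0.63 on the log2 scale with a wide spread between pairs (SE 0.23, adjusted p = 0.0196, 0.574 without the block, 0.116 without pair 2 and 0.0528 without pair 3). Cspg4, the NG2 proteoglycan, fell by 0.61 (SE 0.11), from 17851, 31361, 36194 and 28631 to 10093, 18164, 27211 and 21176 normalized counts. C1ql1, a secreted synaptic organizer, fell by 2.35 (SE 0.25) and the receptor gene Gpr37l1 by 1.45 (SE 0.21). Sox5 fell by 0.77 (SE 0.07, adjusted p = 0.000141) without overlap of the groups. Ptprz1 and Cspg5 did not pass (0.19 ± 0.10 and -0.28 ± 0.15, adjusted p = 0.161 and 0.0927). In bulk RNA, fewer cells of a kind and less RNA per cell cannot be told apart, and this holds for the oligodendrocyte lists that follow.

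Transcription factors of the lineage were mostly not called (17 of 26 tested). Of the 26, 6 (23.1%) were lower and 3 (11.5%) higher, with a median of -0.13 (2 and 1 without the replicate block). The share of higher ones lay below the 13.7% of all genes. Sox8, a factor that promotes differentiation together with SOX10, held 10804, 12492, 17621 and 20092 normalized counts in Ctr-OPCs and 5553, 5393, 8310 and 7845 after IFN-γ. The groups did not overlap, and it fell by 1.15 on the log2 scale (SE 0.09, adjusted p = 2.45e-05). Zfp488, a zinc finger factor of differentiation, held 1015, 2767, 4197 and 3973 normalized counts in Ctr-OPCs and 538, 1511, 2284 and 2316 after IFN-γ. It fell by nearly the same step in each pair (-0.86 ± 0.03, adjusted p = 2.46e-05, 0.416 without the block). Myrf, the activator of myelin genes, fell from 139, 541, 1197 and 1740 to 86.4, 195, 314 and 284 normalized counts (-1.77 ± 0.41, adjusted p = 0.00164, 0.141 without the block). Sox10 fell by 0.57 (SE 0.10), whereas Olig2 did not pass (-0.18 ± 0.06, adjusted p = 0.0822). The higher factors were Zfp536 (1.03 ± 0.15), Sall3 (0.70 ± 0.11) and Sox9 (0.50 ± 0.18). The call of Sox9 was lost without pair 2, 3 or 4 (adjusted p = 0.0741, 0.0901 and 0.0763).

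Genes of committed and premyelinating oligodendrocytes formed the most lowered list. Of 20 tested 15 (75%) were lower and 0 higher, 11 of them moderately, with a median of -1.05, against 1 lower without the replicate block. Gpr17, a receptor that marks committed precursors, held 16324, 65994, 153282 and 177708 normalized counts in Ctr-OPCs and 2315, 17200, 47529 and 43422 after IFN-γ. Each pair fell, by 2.11 on the log2 scale in the fit (SE 0.24, adjusted p = 7.53e-05, 0.295 without the block), and the libraries of pair 1 stood lowest in both groups. Tnr, which encodes the matrix protein tenascin-R, held 5871, 19690, 40413 and 39428 normalized counts in Ctr-OPCs and 2409, 7617, 15732 and 15664 after IFN-γ. It fell by 1.34 with an SE of 0.02, so that the pairs, which differed several-fold in level, hardly differed in the step (adjusted p = 1.86e-06, 0.321 without the block). Bcas1, a marker of early myelinating cells, held 4327, 14734, 32826 and 46424 normalized counts in Ctr-OPCs and 2929, 7933, 15007 and 15159 after IFN-γ (-1.05 ± 0.22). The sialidase gene Neu4 fell by 1.45 (SE 0.10), Tns3 by 0.95 (SE 0.19) and the kinase gene Fyn by 0.35 (SE 0.09, adjusted p = 0.0586 without pair 4). Bmp4 had the widest spread, from 7.92, 105, 241 and 755 to 1.09, 32.7, 5.09 and 11.2 normalized counts (-3.97 ± 1.08). The median change of the list was -0.35 in pair 1, -0.91 in pair 2, -1.19 in pair 3 and -1.36 in pair 4, and its level in the Ctr libraries was -1.05, -0.14, 0.47 and 0.72 in the same order. As for the cell cycle list, change and Ctr level share the Ctr library, so these orders are not independent.

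**Figure D5:**
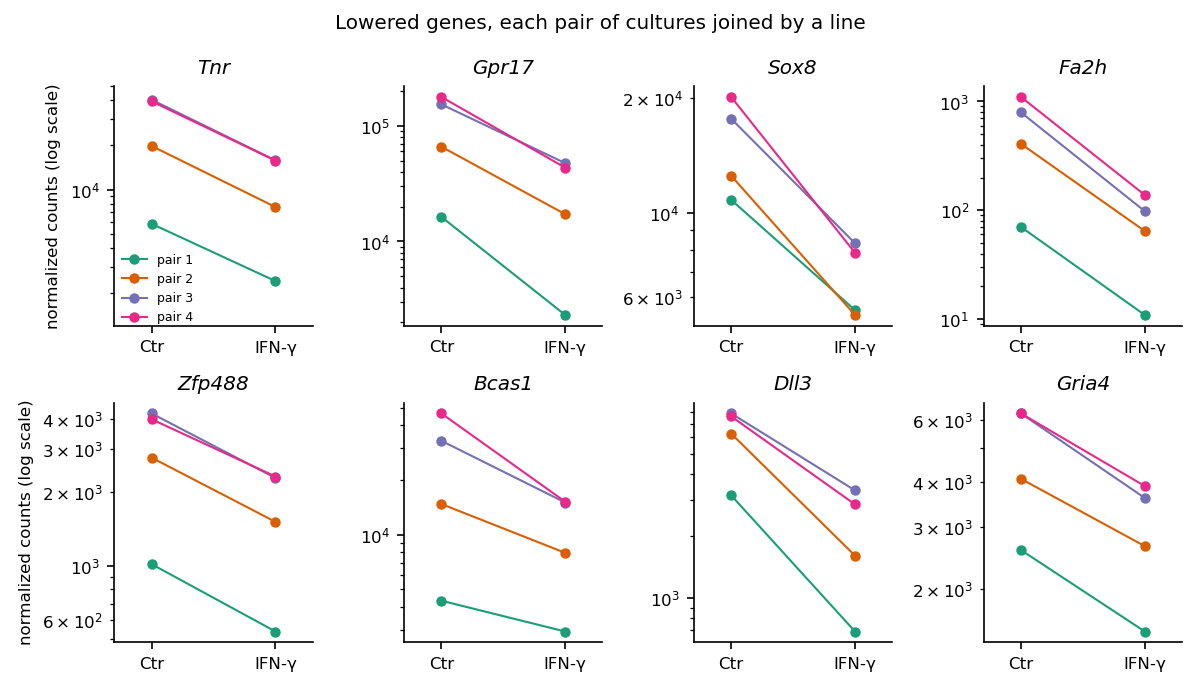
Normalized counts (log scale) of 8 lowered genes in the Ctr and IFN-γ libraries of each pair, joined by a line for each pair. Every line falls, and in Ctr-OPCs pair 1 lies below pairs 3 and 4, as for Tnr with 5871 against 40413 and 39428 normalized counts.

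Myelin protein and lipid genes were lower in 8 of 19 tested members and higher in 1, with a median of -0.51 (1 and 0 without the replicate block). Fa2h, the hydroxylase of myelin lipids, held 70.3, 408, 794 and 1101 normalized counts in Ctr-OPCs and 10.9, 64.4, 98 and 138 after IFN-γ. It fell by 2.88 on the log2 scale in a near-constant step (SE 0.10, adjusted p = 1.49e-06, 0.0895 without the block). Pllp fell by 1.52 (SE 0.17), Gsn by 1.28 (SE 0.18, without overlap of the groups), Cnp by 0.66 (SE 0.14) and Ugt8a, which makes galactosylceramide, by 0.51 (SE 0.10). Mbp, a main myelin protein gene, did not pass. It held 533, 2073, 1368 and 1908 normalized counts in Ctr-OPCs and 399, 2436, 715 and 547 after IFN-γ (-0.71 ± 0.43, adjusted p = 0.101). Cholesterol synthesis, which supplies myelin membrane, had few calls. Of 30 tested genes 1 was higher and 0 lower (3 called in all without pair 4), with a median of 0.01.

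Genes of neurotransmitter receptors, ion channels and synaptic adhesion had more members lower than higher in each of these lists. Their shares of higher members lay near the 13.7% of all genes. Of 33 tested glutamate and GABA receptor genes 11 (33.3%) were lower and 6 (18.2%) higher, with a median of -0.13 (2 and 1 without the replicate block). Among AMPA receptor subunits Gria4 fell from 2577, 4090, 6249 and 6251 to 1519, 2643, 3612 and 3902 normalized counts (-0.72 ± 0.04, adjusted p = 7e-05, 0.299 without the block). Gria2 was slightly lower (-0.25 ± 0.06, adjusted p = 0.0979, 0.109 and 0.0783 without pair 1, 2 or 3) and Gria3 did not pass (-0.10 ± 0.07, adjusted p = 0.302). Gria1, the faintest of these by TPM, went the other way, from 38.6, 69, 25.2 and 38.4 to 232, 232, 108 and 331 normalized counts (2.35 ± 0.29). The NMDA receptor gene Grin3a fell by 0.85 (SE 0.05), and Grin2c held 416, 192, 41.9 and 81.5 normalized counts in Ctr-OPCs and 15.3, 9.2, 2.54 and 1.4 after IFN-γ (-4.63 ± 0.34), the largest decrease among genes with a Ctr mean of 100 or more normalized counts and the same direction in every pair.

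Of 37 tested voltage-gated and potassium channel genes 15 (40.5%) were lower and 7 (18.9%) higher, with a median of -0.19 (1 and 4 without the replicate block, and 13 called in all without pair 2). Kcnj10, a glial potassium channel, fell by 0.47 (SE 0.05), Kcnd2 by 0.43 (SE 0.07) and Cacng4, an auxiliary subunit of AMPA receptors, by 0.78 (SE 0.12). Cacna1e, a calcium channel gene, rose from 54.4, 119, 157 and 165 to 315, 742, 1495 and 1365 normalized counts (2.90 ± 0.17), and Kcnt1 and Kcna4 rose by 2.74 ± 0.25 and 2.24 ± 0.12. Of 39 tested synaptic adhesion and vesicle release genes 20 (51.3%) were lower and 5 (12.8%) higher, with a median of -0.29 (4 and 4 without the replicate block, and 16 called in all without pair 2). Dscam, an adhesion molecule, fell by 0.82 (SE 0.05), from 4974, 9309, 14354 and 13153 to 3110, 4882, 7870 and 7586 normalized counts. The neuroligin gene Nlgn3 fell by 0.34 with an SE of 0.02 (adjusted p = 0.00309, 0.521 without the block). The neurexin gene Nrxn2 fell by 0.76 (SE 0.10) without overlap of the groups. Rph3a, a vesicle protein, fell from 504, 1340, 1550 and 1256 to 25.2, 31.7, 136 and 166 normalized counts (-3.86 ± 0.53). Lrrtm2 rose by 1.66 ± 0.09 and Syt4 by 2.39 ± 0.17.

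Pathways that steer OPC growth and fate were lowered in part. Of 33 tested Notch, BMP and Wnt genes 12 (36.4%) were lower and 4 higher, with a median of -0.35 (1 and 4 without the replicate block, and 10 called in all without pair 2). The Notch ligand genes fell, Dll3 from 3148, 6262, 7838 and 7585 to 690, 1606, 3324 and 2843 normalized counts (-1.69 ± 0.22) and Dll1 by 0.58 (SE 0.12), whereas the receptor gene Notch1 rose by 0.64 ± 0.10. The Notch target Hes5 did not pass (-0.53 ± 0.29, adjusted p = 0.0791), with 3643, 2659, 1572 and 1807 normalized counts in Ctr-OPCs and 1545 to 1648 in all IFN-γ libraries. Among Wnt genes the feedback inhibitor gene Nkd1 fell by 1.35 (SE 0.08), and Sfrp1, a secreted antagonist, rose by 1.79 ± 0.12. Of 29 tested growth factor receptor and feedback genes 8 (27.6%) were lower and 2 higher, with a median of -0.09 (1 and 2 without the replicate block, and 4 called in all without pair 2). Erbb3, the neuregulin receptor, fell by 1.26 (SE 0.41, adjusted p = 0.0514 without pair 2). Fgfr3 fell by 1.01 (SE 0.26), but it is also counted below as an astrocyte marker, and which cells its fall came from was not tested. The feedback genes of FGF signalling Spry2, Dusp6 and Etv5 did not pass (0.15 ± 0.17, -0.08 ± 0.09 and -0.02 ± 0.08, adjusted p = 0.397, 0.463 and 0.894). Of 40 tested collagen and matrix genes 15 (37.5%) were lower and 7 higher, with a median of -0.23 (3 and 3 without the replicate block). Col4a1 fell by 1.15 (SE 0.05), and Col16a1 rose by 1.45 ± 0.20.

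Lists of housekeeping genes lay near or below the background. Of 79 tested nuclear genes of oxidative phosphorylation 8 (10.1%) were higher and 1 lower, with a median of 0.03 (0 and 0 without the replicate block), and the 9 calls became 3 without pair 2 or without pair 3. Of the 13 mitochondrially encoded genes 0 were called, and their median was -0.12. Cytosolic ribosomal proteins were higher in 3 of 81 tested genes and lower in 1, with a median of 0.02 (0 and 0 without the block, 7 called in all without pair 1 and 2 without pair 2). Of 14 genes of the repressive complex PRC2 and the demethylases that oppose it 2 were higher and 2 lower, all by less than 0.5 (0 and 0 without the block, and 1 or 2 called in all without pair 2 or 4). Ezh2, the methyltransferase, did not pass (0.21 ± 0.08, adjusted p = 0.0564), Suz12 was slightly higher (0.25 ± 0.05, adjusted p = 0.101 and 0.0754 without pair 2 or 4) and Ezh1 slightly lower (-0.48 ± 0.09, adjusted p = 0.0553 without pair 2).

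Genes called only with the block are given here by the size of their change. Most of those named lie outside the lists, which hold a small part of the genes tested. Among those called with the block but not without it, with the same direction in every pair and a mean of at least 100 normalized counts in either group, the 10 largest decreases were in Bmp4, the noncoding gene 9530059O14Rik, Tmem132b, Fa2h, Kcnc4, Zfp804a, C1ql1, Sema5a, S100a4 and Chgb, between -3.97 and -2.24. Tmem132b held 645, 3097, 5972 and 7876 normalized counts in Ctr-OPCs and 112, 313, 709 and 1127 after IFN-γ (-2.96 ± 0.17, adjusted p = 1.14e-06, 0.0804 without the block). Sema5a, an axon guidance ligand, fell from 1213, 4586, 8444 and 8693 to 256, 680, 1630 and 2180 (-2.34 ± 0.16). In 9 of these 10 genes pair 1 had the lowest Ctr level, and in Kcnc4 it had the highest (196, 72.4, 61.7 and 95.9 normalized counts). The 10 largest increases of this kind were in Pakap, Gm28048, Sod3, Hopx, B3gnt2, Pltp, Trib3, Atp10a, Apobec1 and Mcc, between 1.62 and 4.76. Pakap and Gm28048 are models that span neighbouring genes, and their split of reads is uncertain. Pltp, a phospholipid transfer protein, held 150, 71.7, 34.3 and 57.6 normalized counts in Ctr-OPCs and 421, 245, 173 and 204 after IFN-γ (1.82 ± 0.17).

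Among moderate genes, those with the smallest p-values were picked, a choice that itself favours changes that are even across pairs. The higher ones were Wsb2, Adar, Fhod3, Ddr2 and Camk2d. Ddr2, a collagen receptor, held 1335, 910, 650 and 1154 normalized counts in Ctr-OPCs and 3095, 2027, 1536 and 2610 after IFN-γ (1.20 ± 0.02, adjusted p = 3.49e-06), and Camk2d rose by 1.40 ± 0.06. The lower ones were Tnr, Elfn2, Dpp10, Plekhb1 and the antisense gene 2810468N07Rik. Elfn2, a membrane protein with leucine-rich repeats, fell from 1662, 4660, 5831 and 6363 to 687, 1877, 2716 and 2587 normalized counts (-1.25 ± 0.05, adjusted p = 4.09e-06, 0.202 without the block). The antisense gene (-1.43 ± 0.08) overlaps the start of Sox8 on chromosome 17, and whether its counting used strand is not stated, so its reads and those of Sox8 may not be separate.

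Markers of other cell types moved in both directions. Of 9 tested astrocyte markers 3 were higher and 4 lower, with a median of 0.32, and their summed level ranged from 22040 to 60320 normalized counts in Ctr-OPCs and from 39600 to 59110 after IFN-γ. Gfap, the astrocyte filament gene, rose from 21.8, 44.8, 4.57 and 18 to 424, 368, 190 and 274 normalized counts (3.90 ± 0.46) and Aldoc by 0.86 ± 0.26, while Aqp4 fell by 0.84 (SE 0.33, adjusted p between 0.0707 and 0.136 without pair 1, 2 or 4) and S100b, which oligodendrocytes also express, by 1.55 (SE 0.17). Fgfr3, given above with the growth factor receptors, was another lower member of this list. Of 10 tested neuron markers 2 were higher and 3 lower, with a median of -0.12 (3 called in all without pair 2). Tubb3, a tubulin of neurons, rose by 1.49 ± 0.27, and Dcx, a protein of migrating neurons, fell by 0.79 (SE 0.16). Of 7 tested pericyte and fibroblast markers 1 was higher and 2 lower, and of 4 endothelial markers 1 was higher and 1 lower. The 2 lower pericyte and fibroblast markers include Cspg4, which is also counted above as an OPC marker. The endothelial and leukocyte gene Ly6c1 was at least 15.9-fold higher, at 19.6 to 69.5 normalized counts after IFN-γ, whereas the endothelial receptor gene Kdr fell by 0.82 (SE 0.06). The median change of the astrocyte list was -0.09, -0.12, 0.44 and 0.73 in pairs 1 to 4. The part of other cell types in the results was not tested.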

How the data were processed

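Total RNA of cultured OPCs was sequenced as stranded, ribosome-depleted libraries. The authors trimmed the reads and quantified transcripts with Salmon 0.8.2, and the deposited values used here are estimated counts and TPM per transcript (scaled by the authors for depth and length). STAR and DESeq2 are also named in the submitters' notes. The Salmon library type is not given in the sources used here. The authors' own tables of mean normalized count, fold change and p-value were not used.

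Estimated counts were summed per gene (transcript IDs of Ensembl 96, GRCm38), rounded, and filtered at 10 reads in at least 4 of the 8 libraries. They were tested with edgeR 4.0.16 (R 4.3.3) by the quasi-likelihood test with TMM factors and the replicate number as a block, which left 3 residual degrees of freedom, and p-values were adjusted by Benjamini-Hochberg over 17476 genes. A log2 fold change is that of the fit, and its error is the SE over 4 paired differences of log2(normalized count + 0.5). Bounds ("at least") use a floor of 3 counts per Ctr library. Alternatives used DESeq2 1.42.0 and limma 3.58.1, other scaling, filters and blocks, and each replicate left out. Scripts were tested on simulated data.

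The labels give different litters for the replicates. Pairing by replicate number was set beforehand. Deviations from the group means correlated between libraries of the same number (r = 0.46 to 0.745 across genes) more than between different numbers (-0.634 to 0.389). Centring on the group means lowers the correlations between different numbers when those of the same number are positive, so this difference is in part built in. TPM values were used only for summed levels and for comparing levels between genes.

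Named genes were key genes of each list, up to 3 members per list and direction with the smallest p, the 10 largest changes each way that were called only with the block, the 10 largest decreases, and the 5 moderate genes each way with the smallest p. Members and lists were chosen with earlier results of these data known.

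Some genes of the lists are counted in the totals and not reported here by name.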

Additional observations from a re-analysis of the deposited data

Results flagged for a closer look

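In 20 of 396 groups of 4 libraries tested (198 genes in 2 groups each), 1 library stood apart from the other 3, its gap to the nearest in log2 normalized counts exceeding the share of the group's range that Dixon's test sets as its 95% critical value. Chance flags about 1 in 20 such groups. The library of pair 1 was the one that stood apart in 12 of the 20. No explanation was weighed for these results.

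In IFN-γ-treated OPCs of pair 1, Jak2 (gap 0.924 of the range), Irgm1 (0.836), Ugt8a (0.937), Bach1 (0.851) and Serpina3n (0.898) were lowest and Trim8 (0.956) was highest. Ugt8a there held 1106 normalized counts against 3238 to 3482 in the other pairs. In Ctr-OPCs of pair 1, Cd274 (0.888), Serpina3n (0.842), Trim25 (0.88) and Lgmn (0.864) were lowest. Cxcl9 and Ly6c1 (1 each) were highest there, at 0.99 normalized counts against 0 in the other Ctr libraries.

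In the other pairs the libraries that stood apart lay in either group. In Ctr-OPCs of pair 3, Ifngr1 (0.891) was highest, and Wars (0.836) and Gm28048 (0.878) were lowest. In Ctr-OPCs of pair 4, Bcl3 (1) and Pakap (1) were highest. In IFN-γ-treated OPCs, Cdkn1b of pair 2 (0.871) and Kdr of pair 4 (0.839) were highest, and Pakap of pair 2 (0.932) was lowest, at 32.7 normalized counts against 134 to 149. Without the pair in question, none of the called genes among them changed direction.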

How the results depend on the processing

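Without the replicate block, 5.74% of the genes tested were higher and 2.08% lower, 0.383% strongly lower, 2.12% moderately higher and 1.26% moderately lower. DESeq2 without the block gave 7.92% higher (1384 genes), 4.85% lower (847), 3.06% moderately higher and 2.52% moderately lower, and 0.761% strongly lower (133 genes). Counts from DESeq2 and limma voom with the block, from RLE size factors, from the title prefix as block and from 11 libraries with the dexamethasone group were within 1.5 times the reported ones. With no filter 278 of 32007 genes (0.869%) were strongly lower. With 50 reads required, 364 of 13496 (2.7%) were strongly higher and 95 (0.704%) strongly lower, fewer genes being tested.

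Leaving out 1 replicate number gave 9.18% to 14.2% of genes higher, 6.65% to 11.8% lower, 3.29% to 3.36% strongly higher, 0.853% to 1.09% strongly lower, 4.01% to 6.19% moderately higher and 3.83% to 5.75% moderately lower. The lowest shares of lower and of moderately lower genes were those without pair 2 (1163 and 670 genes), and 1546 genes were lower without pair 4.

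Of 198 named genes, 0 of those called changed direction under any alternative. Without the block 74 lost their call, and with DESeq2 without the block 43. Leaving out replicates 1 to 4 took the call from 3, 10, 5 and 6 of them. Of the genes given as not passing, Mbp (without pair 2, log2 fold change -1.05, adjusted p = 0.0318, and with no filter, adjusted p = 0.00239), Cspg5, Hes5, Cdkn1b, Ezh2, Olig2 and Atf4 passed under at least 1 alternative, with adjusted p between 0.00239 and 0.0488. With no filter these were Cspg5, Mbp and Hes5, with limma voom Cdkn1b, with the title prefix as block Cdkn1b and Ezh2, with 11 libraries Olig2, Cdkn1b, Hes5 and Ezh2, and without replicate 1, 3 or 4 Cdkn1b and Ezh2, Olig2 and Hes5, and Atf4. The cause was not tested.

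With 3 residual degrees of freedom, calls below a log2 fold change of 0.5 rest on small spreads between pairs. Read depth limits genes near 10 reads. Pairs differ in level before treatment, and litter and culture cannot be told apart.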
